A study of Mus musculus with 24 samples.

Results

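The genes described here encode the enzymes that build cholesterol and fatty acids in mouse blastocysts, together with the regulators and carriers of that pathway. The list has 37 genes, 36 of which were found by name among the 18397 genes tested; Acat2, the thiolase that makes acetoacetyl-CoA, was not found by name on the array. The list was chosen by the measured values of these same arrays, because most cholesterol synthesis genes read higher in the condition coded HC5 than in the other codes. The HC5 differences below are therefore descriptions that carry no test. The HC3 values of the cholesterol synthesis genes were also known from earlier results, so they too are descriptions.

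Each sample was the RNA of a pool of 15 frozen expanded blastocysts of the mouse, or of 20 in HC6, hybridised to a one-colour array of its own. The 24 pools carry 6 condition codes, HC1 to HC6, with 4 pools each. The series title concerns bisphenol A, a plastic monomer with estrogenic activity, and activation of membrane estrogen receptors, but the labels do not say which agent or dose a code stands for, and they name no control, strain, age or sex. Pool size and code cannot be told apart in HC6. No label says that pools of a code came from separate litters, so p-values measure the spread between pools only.

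Cholesterol is made from acetyl-CoA through mevalonate and squalene, and the transcription factor SREBP2 raises the genes of this route when the membranes of the endoplasmic reticulum run short of sterol. The related factor SREBP1 acts more on the genes that make and desaturate fatty acids. Scap carries both factors to the Golgi for cleavage, Insig proteins hold them back, and cells can also meet their need by taking up lipoprotein particles. In the preimplantation embryo these lipids feed new membranes, and sterols also modify hedgehog proteins later in development.

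Values are log2 signal relative to the 75th percentile of the same array, so a level can be compared between pools for a probe but not between probes. Of the 36 measured members, 32 were well above background on all 24 arrays. The others were Fads2 on 22, Abca1 on 19, Lpin1 on 10 and Fads1 on 8 arrays. Arrays differed in brightness: their 75th percentile signals lay between 65.9 and 181, and their shares of spots clearly above background between 38.6% and 49.7%. In pooled embryos, fewer cells of a type and less RNA per cell cannot be told apart. The tissue label was checked on lineage markers: 9 of 10 inner cell mass markers, including Pou5f1, Nanog and Sox2, and 10 of 10 trophectoderm markers, including Cdx2, were well above background on every array. Of 12 cumulus and granulosa cell markers, 2 were tested and 1, Foxl2, reached that level on every array, while Amh, Fshr, Cyp19a1 and Ptx3 were not among the genes tested. Of 8 blood and immune cell markers, 6 were tested and 5 reached it on every array (Ptprc, Cd68, Csf1r, Cd3e and Itgam). Of 7 fibroblast markers, 1 was tested and 0 did. Reaching that level therefore does not by itself show that a cell type was present, and the purity of the pools was not tested.

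The condition codes left no member past the threshold. The limma F-test over the 6 codes, with Benjamini-Hochberg adjustment over all genes, called 0 of 36 members, against 0% of all genes (0 of 18397). At an unadjusted F-test p under 0.05 stood 1 member, Cyp51, and 385 genes in all, or 2.09%. The F-test takes in HC5, the code the list was chosen by, so a member's p in it is a description. Against the mean of the other 5 codes, limma called 0 members in HC1, HC2, HC3, HC4 and HC6, where it also called 0% of all genes. The smallest adjusted p of a member in those 5 contrasts was 0.998 (limma). At an unadjusted p under 0.05 limma had 590, 411, 290, 345 and 546 genes in HC1, HC2, HC3, HC4 and HC6. HC5, the code the list was chosen by, likewise had 0% of genes called, with 1009 genes at an unadjusted p under 0.05. Outside HC5, HC3 had 2 of 17 cholesterol synthesis genes and 2 of 9 fatty acid genes past the unadjusted level, beside 290 of 18397 genes. In HC3 Tm7sf2 stood at -0.27 ± 0.11 (log2 difference from the other codes, SE), and Dhcr7, Scd2 and Fads2 also passed that level. Because the HC3 values of the cholesterol synthesis genes were known beforehand, those of Tm7sf2 and Dhcr7 are descriptions. In HC1 the members past that level were Fads1 and Lpin1, in HC4 Fads2 and in HC6 Fads1, beside 590, 345 and 546 genes in all.

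**Figure D1:**
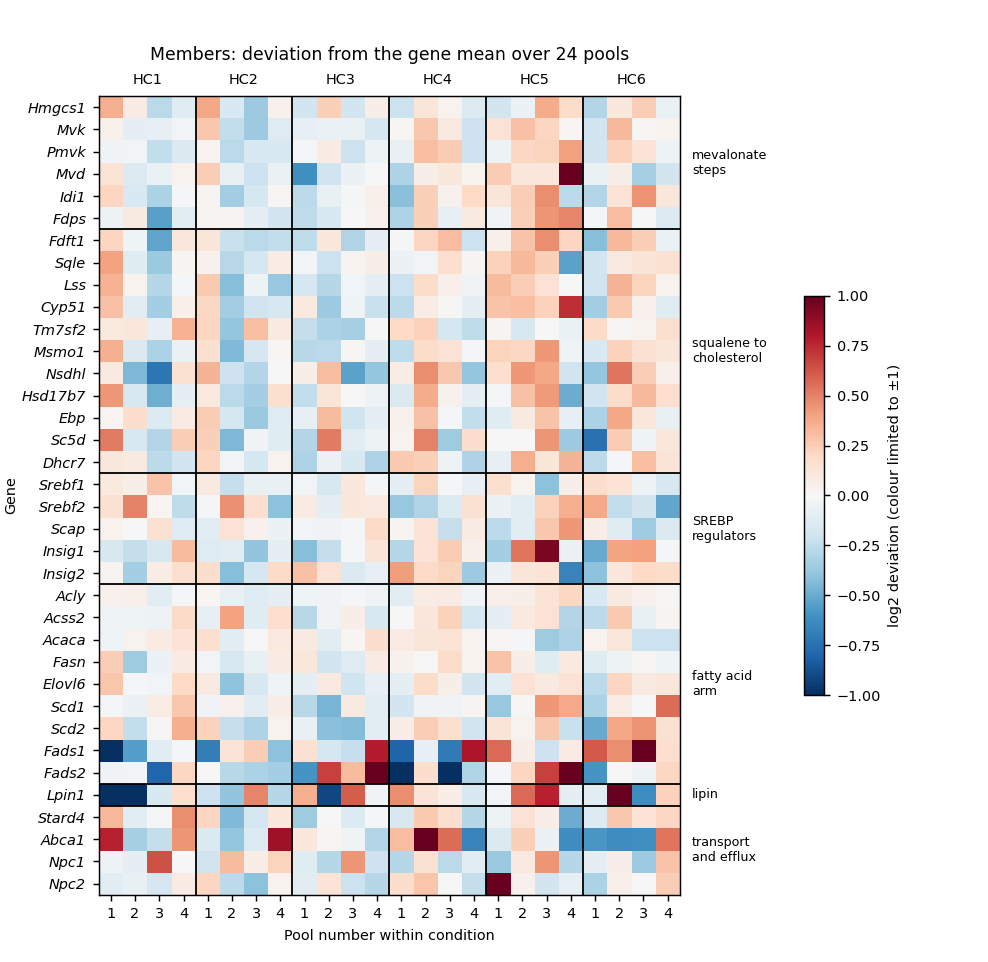
Log2 deviation of each measured member (rows, grouped by role) from its own mean over 24 pools (columns, 4 per condition code), with the colour limited to ±1. Rows of the mevalonate and squalene steps change colour together from pool to pool, while dim members such as Fads1 and Lpin1 vary on their own.

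The mevalonate steps carry acetyl-CoA units to farnesyl diphosphate. Hmgcs1, the synthase that makes HMG-CoA, had 4.05 ± 0.22 (mean log2 ± SD, n = 24), from 3.69 in HC2 replicate 3 to 4.44 in HC2 replicate 1. The lowest and the highest pool of Hmgcs1 thus belonged to the same code, and the code means lay between 4.00 ± 0.15 in HC4 and 4.12 ± 0.25 in HC5 (SD, n = 4 each). Its F-test p was 0.985 (limma, unadjusted), with an adjusted p of 1.00. Mvk, the mevalonate kinase, ranged from 4.65 to 5.34, Pmvk, the phosphomevalonate kinase, from 5.12 to 5.80, and Idi1, the isopentenyl diphosphate isomerase, from 2.65 to 3.53. Fdps, the farnesyl diphosphate synthase, ranged from 4.60 in HC1 replicate 3 to 5.63 in HC5 replicate 4.

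Mvd, the mevalonate diphosphate decarboxylase, had log2 levels of 1.25, 1.11, 1.11 and 2.15 in the 4 HC5 pools, and of 0.92 ± 0.19 in the other 20 pools (SD, n = 20). All HC5 pools lay above the median of the others, but the groups overlapped, since HC2 replicate 1 had 1.24. The difference of HC5 from the other codes was 0.49 ± 0.15 (log2, SE). It was 0.24 without HC5 replicate 4, the pool that stood apart.

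The squalene steps turn farnesyl diphosphate into cholesterol. Cyp51, the lanosterol demethylase, had levels of 2.57, 2.59, 2.52 and 3.03 in the HC5 pools and 2.21 ± 0.21 in the others (log2, SD, n = 20). HC1 replicate 1, at 2.58, and HC6 replicate 2, at 2.55, reached into the HC5 range. The HC5 difference of Cyp51 was 0.47 ± 0.13 (log2, SE), and 0.35 without HC5 replicate 4. Cyp51 had the smallest F-test p of the members, 0.039 unadjusted and 1.00 after adjustment (limma). The F-test takes in HC5, the code the list was chosen by, so this p is a description too. Its second probe, well above background on all arrays, correlated with the probe used at r = 0.29 over 24 pools and gave an HC5 difference of 0.24.

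Fdft1, the squalene synthase that commits the pathway to sterols, had 4.14, 4.38, 4.56 and 4.31 in the HC5 pools, all above the median of the others, and 4.04 ± 0.25 in the other 20. Sqle, the squalene epoxidase, had 5.06, 5.15, 5.07 and 4.29 there, so the lowest pool of all 24 was HC5 replicate 4. Hsd17b7, a sterol ketoreductase, was also lowest in that pool, at 2.43, but level with 2.43 in HC1 replicate 3. Fdps, Pmvk, Mvd and Cyp51 were highest of all in HC5 replicate 4. HC5 replicate 4 was the dimmest array, with a 75th percentile signal of 65.9, and the part of this in its values was not tested.

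The other squalene step genes spread by at most 2.40 fold between their extreme pools. Lss, the lanosterol synthase, ranged from 1.86 to 2.63, Msmo1, the methylsterol monooxygenase, from 3.63 to 4.50, and Ebp, a sterol isomerase, from 4.61 to 5.37. Nsdhl, a dehydrogenase of the demethylation steps, ranged from 0.29 in HC1 replicate 3 to 1.55 in HC6 replicate 2, and Sc5d, the lathosterol desaturase, from -0.42 to 0.84. Tm7sf2, a sterol reductase, ranged from 0.93 to 1.66 and was the sterol member with an HC5 difference below 0, at -0.06 ± 0.11 (log2, SE). Dhcr7, the reductase of the last step, ranged from 0.22 to 0.89.

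**Figure D2:**
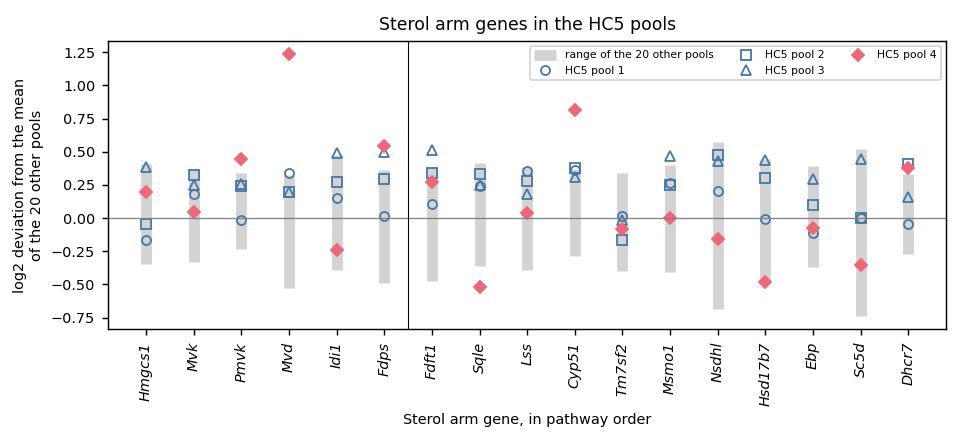
Log2 deviation of the 17 measured sterol arm genes (x axis, in pathway order, mevalonate steps left of the line) from their mean over the 20 pools outside HC5. Grey bars span those 20 pools and symbols are the 4 HC5 pools. HC5 replicate 4 (filled) lies above the bar for Pmvk, Mvd, Fdps, Cyp51 and Dhcr7, below it for Sqle and just below it for Hsd17b7.

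Across the 17 measured genes of the mevalonate and squalene steps, called the sterol arm below, 16 had a higher mean in HC5, with a median difference of 0.21 (log2). Over all genes, 47.7% were higher in HC5 and the median difference was -0.01. Leaving out HC5 pools in turn gave medians from 0.16 to 0.25, with 16, 14, 12 and 16 of 17 higher without replicates 1, 2, 3 and 4. In HC3, whose values were known beforehand too, 1 of 17 was higher and the median was -0.12, against 49.9% and 0.00 over all genes. The counts were 5 of 17 in HC1, 2 of 17 in HC2, 11 of 17 in HC4 and 13 of 17 in HC6, with medians of -0.05, -0.11, 0.02 and 0.04. Over 38 alternative settings the sign of the median changed in 2, 1, 7 and 2 of them in HC1, HC2, HC4 and HC6, and in 0 in HC3.

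An arm score was taken in each pool as the mean deviation of the arm's genes from their 24-pool means. The sterol arm score was 0.08, 0.20, 0.29 and 0.09 in the HC5 pools and -0.19, -0.02, -0.13 and -0.08 in the HC3 pools. HC5 replicate 3 was the highest of all 24 pools. These codes did not overlap with each other, but the remaining pools, from -0.32 in HC1 replicate 3 to 0.23 in HC4 replicate 2, overlapped with both. HC1 had 0.21, -0.06, -0.32 and 0.02, HC2 had 0.18, -0.25, -0.18 and -0.07, HC4 had -0.10, 0.23, 0.05 and -0.10, and HC6 had -0.24, 0.22, 0.13 and 0.02. HC1, HC2, HC4 and HC6 each held pools on both sides of 0. HC5 arrays had 75th percentile signals of 112, 116, 81.3 and 65.9, against 85.5 to 181 elsewhere, and the sterol score correlated with the log2 of that signal at r = -0.48 over 24 pools, -0.41 with the condition means removed, and -0.46, -0.62 and -0.72 on slides 1, 2 and 3. Its part in the HC5 values was not tested.

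**Figure D3:**
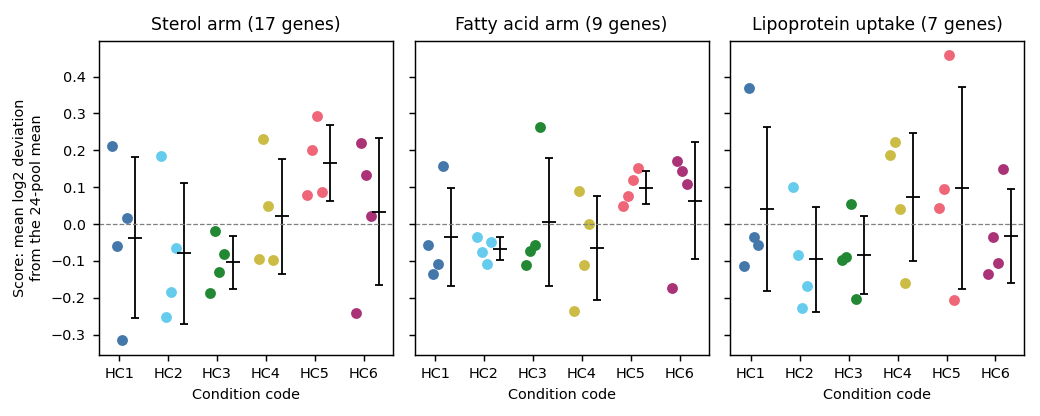
Score of the sterol arm, the fatty acid arm and the lipoprotein uptake list (y axis, mean log2 deviation from the 24-pool mean) in each pool, by condition code. Bars are the mean ± SD of 4 pools. HC5 pools lie above 0 in the sterol and fatty acid panels and from -0.21 to 0.46 in the uptake panel.

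The fatty acid arm holds 9 measured genes. Fasn, the fatty acid synthase, had 5.38 ± 0.14 (log2, SD, n = 24), with code means from 5.33 ± 0.05 in HC6 to 5.46 ± 0.17 in HC5. Its 4 HC5 pools, at 5.67, 5.44, 5.26 and 5.48, held the highest value of all and a value below the other pools' mean of 5.36. Acly, the citrate lyase that supplies acetyl-CoA to both arms, varied least, with an SD of 0.09 and a lowest level of 4.64. Its HC5 difference was 0.13 ± 0.06 (log2, SE), with all 4 HC5 pools above the median of the others.

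Acaca, the acetyl-CoA carboxylase, had the opposite sign in HC5, at -0.19 ± 0.08 (log2, SE), with 2.64 in replicate 3, 2.69 in replicate 4, 2.99 in replicate 2 and 3.02 in replicate 1. Its probes disagreed. Of the other Acaca probes detected on all arrays, one gave 0.24 in HC5 and correlated with the probe used at r = 0.15, and the other gave -0.30, with r = 0.26. Elovl6, an elongase, ranged from 4.29 to 4.98 and Scd2, a stearoyl-CoA desaturase, from 3.45 to 4.40. Scd1, the other stearoyl-CoA desaturase among the members, ranged from 0.99 in HC3 replicate 2 to 2.01 in HC6 replicate 4. Acss2, an acetyl-CoA synthetase, ranged from 0.41 to 1.11.

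Fads2, a desaturase of polyunsaturated fatty acids, varied most within the arm, from -2.75 in HC4 replicate 1 to 0.19 in HC3 replicate 4. Its code means were -1.07 ± 1.00 in HC3, -1.09 ± 0.58 in HC5 and -2.22 ± 0.64 in HC4 (log2, SD, n = 4 each), and the pools of these codes overlapped. Without HC3 replicate 4 the HC3 difference of Fads2 went from 0.67 to 0.25. Fads1, its partner desaturase, was not well above background on any HC5 array, so no fold is given for it there.

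The fatty acid arm score was 0.05, 0.08, 0.12 and 0.15 in the HC5 pools. HC2 lay between -0.11 and -0.04. The highest pool was HC3 replicate 4, at 0.26, while the other HC3 pools lay between -0.11 and -0.06. In HC5, 7 of 9 genes of this arm had a higher mean, with a median difference of 0.10, and 3 of 9 did in HC3, with a median of -0.04.

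Among the regulators, Insig1, which retains Scap and is itself a classical SREBP target, varied most, from -0.65 in HC6 replicate 1 to 0.79 in HC5 replicate 3. Its HC5 pools had -0.49, 0.39, 0.79 and -0.21, the others -0.20 ± 0.27 (log2, SD, n = 20), so HC5 held both low and high pools. Srebf2, which encodes SREBP2, had 2.19 ± 0.28 (log2, SD, n = 24), and its other detected probe correlated with the probe used at r = 0.02. Srebf1, which encodes SREBP1, had 3.48 ± 0.15, Scap had 2.50 ± 0.18 and Insig2, the second Insig gene, had 1.23 ± 0.27. Lpin1, a phosphatidate phosphatase also known as an SREBP target, was dim and ranged from -4.22 to -0.82.

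Of the carriers, Stard4, a soluble sterol transfer protein, ranged from 1.05 in HC5 replicate 4 to 2.01 in HC1 replicate 4. Npc2, which hands lysosomal cholesterol to Npc1, had 4.99 in HC5 replicate 1 against 3.86, 3.63 and 3.73 in the other HC5 pools, and its HC5 difference went from 0.29 to -0.03 without that pool. Npc1 ranged from 1.98 to 2.99. Abca1, the efflux pump induced by sterol excess, ranged from -2.52 to -0.80 and was well above background on 3 of 4 HC5 arrays.

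The sterol genes moved together from pool to pool. Over the 136 pairs of the 17 sterol arm genes, the median Pearson r across 24 pools was 0.51, and 132 pairs (97.1%) were positive. The median was 0.48 with the condition means removed, so the genes co-varied nearly as closely among pools of the same code. Sterol arm genes against every other gene tested had a median r of 0.04, with 54.9% of pairs positive. Within the fatty acid arm the median over 36 pairs was 0.09, with 20 positive, and within the uptake list it was 0.02 over 21 pairs. These correlations are descriptions with no p: the genes of a pair are read on the same 24 arrays, so a pool's brightness touches both.

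Hmgcs1 served as the anchor for tests across all genes, by permuting the pools 100000 times (two-sided). Its Pearson r was positive with 16 of 16 other sterol arm genes, at a median of 0.54, against 0.01 over the 18141 genes without a missing value. At an unadjusted permutation p under 0.05, 13 of the 16 were positively correlated, against 7.43% of all genes. After Benjamini-Hochberg adjustment over all genes, 0 of 35 members passed by Pearson r, as did 0% of all genes. By Spearman's rho 2 members passed, Fdft1 (rho = 0.75, permutation adjusted p = 0.044) and Ebp (rho = 0.73, permutation adjusted p = 0.044), among 40 genes in all. The count by Pearson r depends on the scaling: 11, 34, 40 and 23 genes passed with the 75th percentile taken over detected probes, with normexp and quantile normalization, with quantile normalization and in the authors' deposited table, and 1 member in the quantile setting. With the slide as a block 70 genes and 2 members passed. Without HC1 replicate 1 the counts were 16 genes and 1 member, and without HC5 replicate 4 they were 11 and 1. The other Hmgcs1 probe was well above background on 0 of 24 arrays, so the anchor rests on a single probe.

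The closest Pearson correlates of Hmgcs1 among members were Fdft1 (r = 0.73, permutation p = 3e-05, adjusted 0.085) and Ebp (r = 0.72, permutation p = 0.0001, adjusted 0.091). Without the 2 pools farthest from the Hmgcs1 median, HC2 replicate 1 and HC5 replicate 3, their r was 0.71 and 0.66. On the 3 slides taken alone Fdft1 had r of 0.76, 0.80 and 0.68. Tm7sf2 at 0.04, Sqle at 0.31 and Mvd at 0.34 were the sterol genes that missed the unadjusted level.

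Because HC5 chose the list, the same test was run after removing condition means, with pools permuted within codes. Then 16 of 16 sterol arm genes again had a positive r with Hmgcs1, at a median of 0.58, and 12 of 16 reached an unadjusted permutation p under 0.05, against 6.49% of all genes. Fdft1 had r = 0.81 (permutation p = 4e-05, adjusted 0.136), and 0% of all genes passed adjustment here.

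**Figure D4:**
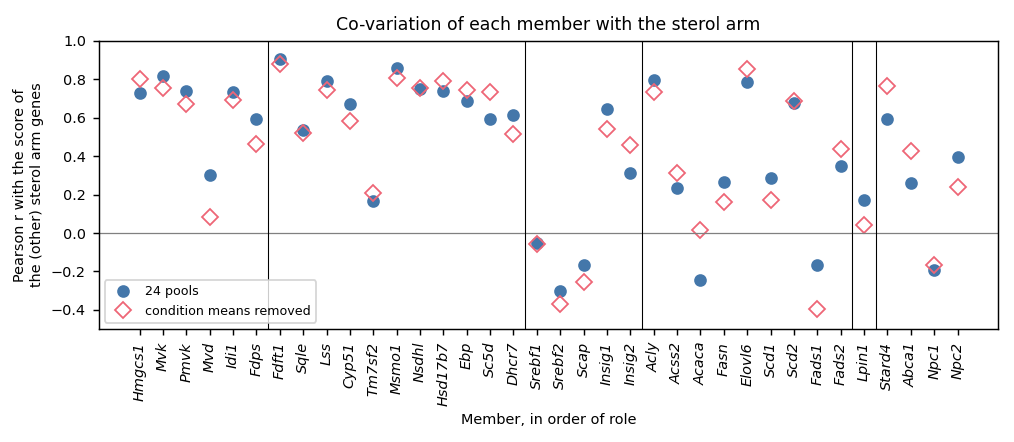
Pearson r of each member (x axis, in order of role) with the score of the sterol arm computed without that gene, over 24 pools (circles) and with condition means removed (diamonds). Sterol genes other than Mvd and Tm7sf2 lie above 0.4 on both measures, and Acly, Elovl6 and Scd2 lie there too, but Fasn and Acaca do not.

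The fatty acid arm did not move as a block with the sterol arm. Against the sterol arm score, Acly had r = 0.79, Elovl6 0.78 and Scd2 0.67 over 24 pools, while Acss2 had 0.23, Fasn 0.27, Scd1 0.29, Fads2 0.35, Fads1 -0.17 and Acaca -0.24. With Hmgcs1, Elovl6 had r = 0.66 (permutation p = 0.00044, adjusted 0.093) and Acly 0.65 (permutation p = 0.00045, adjusted 0.094). Fasn had r = 0.02 with Hmgcs1 (permutation p = 0.93). The score of the fatty acid arm correlated with that of the sterol arm at r = 0.55 (Spearman's rho 0.60), or 0.50 with condition means removed. The slides differed: r was 0.55, 0.90 and 0.11 on slides 1, 2 and 3. With the 2 dim desaturases left out, the arms correlated at 0.70, an alternative chosen after seeing the data.

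Fasn as anchor gave another picture. Its r was positive with 4 of the 8 other fatty acid arm genes, at a median of 0.09, and with 15 of 17 sterol arm genes, at a median of 0.22. Scd2 was the fatty acid gene past the unadjusted level (r = 0.43, permutation p = 0.033, adjusted 0.285), so 1 of 8, against 10.1% of all genes. With condition means removed it was again 1 of 8, against 7.93% of all genes. After adjustment 0 of 35 members passed, against 0.11% of all genes positively correlated (20 genes), or 0% with condition means removed. Counting both signs, 22 genes passed, and this small count was not stable. Without HC5 replicate 4 it was 218 genes, and without HC1 replicate 2 or HC3 replicate 3 it was 0.

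**Figure D5:**
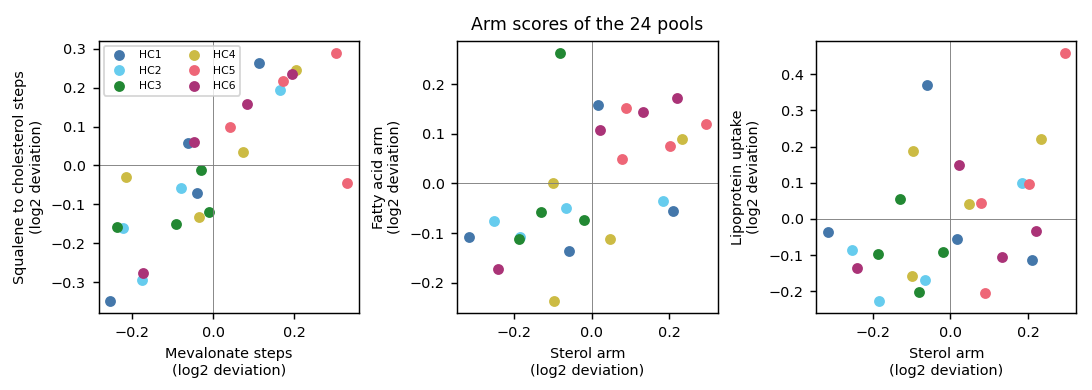
Scores of the 24 pools (points, coloured by condition code; axes in mean log2 deviation): squalene against mevalonate steps, fatty acid arm against sterol arm, and lipoprotein uptake against sterol arm. The first panel is tightest, apart from HC5 replicate 4 at 0.33 and -0.04, and the third is the most scattered.

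The mevalonate and squalene steps tracked each other at r = 0.79, and at 0.88 without HC5 replicates 3 and 4, the pools farthest from the median. On slides 1, 2 and 3 it was 0.85, 0.98 and 0.47. HC5 replicate 4 had 0.33 for the mevalonate steps and -0.04 for the squalene steps, whereas HC5 replicate 3 had 0.30 and 0.29.

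Lipoprotein uptake was read from a list of 8 genes that includes Vldlr and Lrp8, which are receptors of the LDL receptor family, Mylip, the ubiquitin ligase that removes such receptors, Scarb1, the HDL receptor, and Npc1 and Npc2. Lipa, the lysosomal lipase, was not among the genes tested, so 7 of 8 were. The score adds all 7 with the same sign, including Mylip, which acts against uptake and was well above background on 9 of 24 arrays, so a high score need not mean more uptake. The uptake score was 0.04, 0.10, 0.46 and -0.21 in the HC5 pools, which thus held the highest pool of all and a low one. Its highest pools were HC5 replicate 3 and HC1 replicate 2, at 0.37, and the latter had a sterol score of -0.06. Mylip had the largest HC1 difference of the uptake genes named, at 0.55 ± 0.45 (log2, SE). The uptake score correlated with the sterol arm score at r = 0.41. That r fell to 0.29 without the 2 pools farthest from the sterol median and to 0.30 with condition means removed. On slides 1, 2 and 3 it was 0.19, 0.49 and 0.83. With only the uptake genes detected on all arrays, which leaves Mylip out, it was 0.46, an alternative chosen after seeing the data. With the fatty acid arm r was -0.06. Of the uptake genes, 4 of 7 had a higher mean in HC5, and 0 of 7 passed the limma F-test after adjustment. Lrp8 had the largest HC5 difference, at 0.61 ± 0.26 (log2, SE).

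The regulators and carriers spread widely. Insig1 had r = 0.65 with the sterol arm score and Stard4 0.59, and with condition means removed 0.54 and 0.77. Npc2 had 0.39, Insig2 0.31 and Abca1 0.26, and with condition means removed 0.24, 0.46 and 0.42. Srebf1 had -0.05, Scap -0.17, Srebf2 -0.30 and Npc1 -0.19. The transcripts of the 2 SREBP factors and their escort therefore did not track the pathway genes over these pools, with the limit that the Srebf2 probes disagree.

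The score also varied with lineage markers. The sterol arm score correlated with the mean of 10 inner cell mass markers at r = 0.48, and with condition means removed at 0.61. The squalene steps alone had 0.60 and 0.71, but the mevalonate steps alone had 0.16 and 0.27. For the whole sterol arm, the values for 10 trophectoderm markers were -0.12 and -0.19, and for 10 primitive endoderm markers -0.25 and -0.27. On slides 1, 2 and 3 its inner cell mass value was 0.57, 0.87 and -0.11, so it did not hold on slide 3. The 2 cumulus cell markers tested gave -0.37, the 6 blood cell markers -0.0025 and the 1 fibroblast marker -0.21. The inner cell mass score ran from -0.32 to 0.09 in HC5 and from -0.30 to 0.33 elsewhere, so HC5 pools were not high in it. Whether lineage makeup contributes to the co-variation was not tested.

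Promoters are shown for members that moved together and for 2 fatty acid genes beside them. Of the 37 members, 29 matched a window from 250 bases before to 50 bases after a RefSeq start site (GRCm38.p6), and Fdps, Fdft1, Sqle, Scd1, Scd2, Fads1, Npc1 and Stard4 did not. SREBP factors bind a short sterol element, here searched as TCACNCCAC, together with the factor NF-Y, whose box reads CCAAT. Both strands were searched, so ATTGG is the box on the other strand. The 200 bases before the start site follow, 5′ to 3′ on the strand of the gene, with matches in capitals. The stretches are chr13:119690151-119690350 (Hmgcs1, plus strand), chr5:114444069-114444268 (Mvk, plus strand), chr13:8885406-8885605 (Idi1, plus strand), chrX:72918321-72918520 (Nsdhl, plus strand), chr11:120824548-120824747 (Fasn, minus strand) and chr3:129532186-129532385 (Elovl6, plus strand).
Hmgcs1: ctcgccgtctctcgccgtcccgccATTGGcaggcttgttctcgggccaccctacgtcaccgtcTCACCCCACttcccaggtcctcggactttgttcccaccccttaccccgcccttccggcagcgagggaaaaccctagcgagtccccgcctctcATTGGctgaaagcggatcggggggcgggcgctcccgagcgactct
Mvk: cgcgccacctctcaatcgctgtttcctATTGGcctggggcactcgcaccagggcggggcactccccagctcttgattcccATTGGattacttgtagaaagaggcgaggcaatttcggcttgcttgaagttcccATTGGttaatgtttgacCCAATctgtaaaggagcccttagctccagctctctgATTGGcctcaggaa
Idi1: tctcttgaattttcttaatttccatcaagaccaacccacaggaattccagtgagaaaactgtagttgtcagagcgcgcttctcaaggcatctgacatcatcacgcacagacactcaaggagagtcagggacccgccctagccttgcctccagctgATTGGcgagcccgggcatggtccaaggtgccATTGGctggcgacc
Nsdhl: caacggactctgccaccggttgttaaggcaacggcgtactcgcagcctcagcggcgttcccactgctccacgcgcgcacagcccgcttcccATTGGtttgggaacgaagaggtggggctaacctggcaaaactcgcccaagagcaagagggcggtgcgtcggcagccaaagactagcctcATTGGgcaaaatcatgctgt
Fasn: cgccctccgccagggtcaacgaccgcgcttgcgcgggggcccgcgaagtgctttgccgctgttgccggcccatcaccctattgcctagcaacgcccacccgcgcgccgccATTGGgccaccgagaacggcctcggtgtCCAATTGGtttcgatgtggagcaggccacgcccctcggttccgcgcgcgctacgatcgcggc
Elovl6: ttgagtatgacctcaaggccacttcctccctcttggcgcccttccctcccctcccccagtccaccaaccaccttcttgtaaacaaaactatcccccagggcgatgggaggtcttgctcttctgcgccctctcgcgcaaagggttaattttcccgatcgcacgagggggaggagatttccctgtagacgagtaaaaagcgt

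The Hmgcs1 stretch holds 1 sterol element and 2 NF-Y boxes, the Mvk stretch 5 boxes, those of Idi1 and Nsdhl 2 each, that of Fasn 3, of which 2 overlap, and that of Elovl6 0. In the whole windows, an NF-Y box was found for each of the 14 measured sterol arm genes with a window and not for Acat2, the unmeasured thiolase (14 of 15, 93.3%), for 3 of 6 fatty acid arm genes and for 41.1% of 27025 genes. Pmvk and Dhcr7 have several start sites, and a box lay in 1 window of each. The exact sterol element was found for Hmgcs1 and no other member, 1 of 29, against 1.44% of genes. An E-box, CANNTG, which SREBP1 can also bind, was found for 21 of 29 members and 74.99% of genes. Elovl6, with r = 0.66 with Hmgcs1, has no box in its window, and Fasn, with r = 0.02, has 3. A match is a string of letters and says nothing of binding in these embryos, and genes with several windows had more sequence searched.

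Genes of the same chemistry outside the members were read from lists. Of 15 other sterol and isoprenoid genes, such as Ggps1, which makes geranylgeranyl diphosphate, and Soat1, which esterifies cholesterol, 6 had a higher mean in HC5, with a median difference of -0.03. Of 25 tested other fatty acid synthesis genes, 15 were higher, with a median of 0.02, of 8 tested SREBP processing genes 2, with a median of -0.06, and of 9 tested LXR and oxysterol genes 6, with a median of 0.05. None of these had an unadjusted F-test p under 0.05, and limma called 0 of them after adjustment in any of the 6 contrasts. These medians lie beside 0.21 for the 17 sterol arm genes. The members were listed because most of the sterol genes read higher in HC5, so that contrast follows from the choice. The difference between the lists was not tested.

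Several members were read by more than 1 probe. Beyond the probe used, 14 probes of 13 genes were well above background on all arrays, and their r with the probe used had a median of 0.59, from 0.02 to 0.93. Fdft1 at 0.93, Pmvk at 0.92 and Msmo1 at 0.83 agreed closely, while Mvk at 0.31, Acss2 at 0.13 and Srebf2 at 0.02 did not. In HC5, 12 of these 14 probes had a difference of the same sign as the probe used.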

How the data were processed

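RNA of 24 pools was measured on one-colour Agilent arrays on 3 slides. Per the submitters' processing notes, arrays were read with Agilent Feature Extraction 10.10.1.1. The deposited intensity values are background subtracted within each array and not normalized between arrays, per the file headers. The deposited flags mark spots well above background, outlying or saturated. A deposited table of log2 values by the authors, whose normalization is not given in the sources used here, served as an alternative.

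From the processed intensity, log2 values minus the 75th percentile of each array were computed, without control and outlier spots. Probes well above background on at least 4 arrays, with at least 2 values per condition, were kept, and the brightest probe stood for a gene. limma 3.58.1 fitted 6 condition means, with Benjamini-Hochberg adjustment at 0.05 over 18397 genes. Correlations with Hmgcs1 and Fasn used 100000 two-sided permutations. On simulated data for HC1, log2 changes of 0.5, 1, 1.5 and 2 were recovered for 21, 41, 45 and 48 of 50 genes each, among 18397 genes. The 4 sizes were put in together, and 9 unchanged genes were called. Larger changes ease the adjusted threshold for smaller ones, so these counts do not give the recovery of small changes alone. The number of arrays limits the precision. Alternatives covered scaling, background, filters, probes, slide and replicate blocks and leaving out pools.

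The members, gene lists and marker lists were chosen with earlier results of these data known. Named were all members, those with the smallest F-test p, the largest HC5 difference in each role or disagreeing probes in full, list genes with an unadjusted F-test p under 0.05, and up to 10 genes most like the sterol arm. Pathway genes outside the lists were not analysed here, and 1 gene of the uptake list is not reported here on its own.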

Additional observations from a re-analysis of the deposited data

Results flagged for a closer look

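In 18 of 258 groups of 4 pools (6.98%), the pool at an extreme stood apart, by the share of the group's range that lies between it and its nearest neighbour; chance alone gives about 1 in 20 groups. HC5 replicate 4, the dimmest array, was such a pool 4 times. Its Mvd level of 2.15 left a gap of 0.861 of the range above the other HC5 pools, and its Cyp51 level of 3.03 a gap of 0.865. Its Sqle level of 4.29 left a gap of 0.89 below them, and its score of the sterol transport and efflux genes, at -0.37, a gap of 0.837 below. In HC5 replicate 1, Npc2 stood at 4.99, with a gap of 0.832.

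HC3 replicate 4 stood apart for 2 members and a score. Its Mvk level of 4.84 lay below the other HC3 pools (0.865), its Scap level of 2.70 above them (0.915), and its fatty acid arm score of 0.26 above them (0.852). In HC3 replicate 2, Srebf2 at 2.10 lay below the rest (0.893).

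HC1 replicate 4 stood above the other HC1 pools for Insig1, at 0.17 (0.861), and for Acss2, at 0.91 (0.917). Npc1 stood above them in HC1 replicate 3, at 2.99 (0.876), and the lipoprotein uptake score in HC1 replicate 2, at 0.37 (0.839). In HC2, Fdft1 stood high in replicate 1, at 4.21 (0.874), and Insig1 low in replicate 3, at -0.55 (0.901). Mvd stood low in HC4 replicate 1, at 0.69 (0.84). In HC6, Insig2 stood low in replicate 1, at 0.82 (0.845), and Abca1, a dim probe, high in replicate 4, at -1.32 (0.96).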

How the results depend on the processing

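Counts of genes called between codes stayed at 0 to 2. The authors' deposited table gave 2 genes in HC2, and no background filter gave 1 in HC5. Leaving out a pool gave 0 to 1 for the F-test, HC1, HC2 and HC5, and 0 to 2 for HC4. Of the sterol arm, slides taken alone gave medians of 0.18 (slide 1) and -0.38 (slide 2) in HC1, 0.28 (slide 2) in HC4 and -0.21 (slide 1) in HC6. The median difference of the fatty acid arm in HC2 against the other 5 was -0.0509 with detected probes for the percentile, -0.0338 with normexp, -0.0464 with quantile normalization, -0.0264 in the authors' table, 0.0125 on slide 1, -0.14 on slide 2 and -0.0503 with members detected on all arrays, and leaving out a pool gave -0.0947 to -0.0285. In HC5 it was 0.0427 in the authors' table and -0.0590 on slide 3, and 0.0404 to 0.106 without a pool, and in HC6 -0.18 on slide 1. For lipoprotein uptake it was 0.16 in HC1 with the mean of a gene's probes, 0.0761 in HC2 on slide 3, 0.38 in HC4 on slide 2, -0.23 in HC5 on slide 1, and -0.23 and 0.30 in HC6 on slides 1 and 3. The median difference of the LDL uptake in HC3 against the other 5 was 0.0341, 0.00145 and -0.29 on slides 1, 2 and 3. The sterol score correlated with the fatty acid score at 0.90 and 0.11 on slides 2 and 3, and with the uptake score at 0.83 on slide 3.

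Genes correlated with Hmgcs1 were 11 with detected probes for the percentile, 34 with normexp, 40 with quantile normalization, 23 in the authors' table and 70 with the slide as a block, and 0 to 16 without a pool. Of members, 1 passed with quantile normalization, 2 with the slide block and 0 to 1 without a pool. Genes correlated with Fasn, of either sign, were 22 in the main setting. They were 0 with detected probes for the percentile, normexp, quantile normalization, the authors' table, no filter, the mean of a gene's probes and condition means removed. With the slide block they were 4, and 0 to 218 without a pool. By the median, the replicate numbers did not pair the pools: same-numbered and other-numbered pools of different codes both correlated at -0.01. Pairs over 0.1 were 25 of 60 with the same number and 57 of 180 with other numbers, a larger share in the former. With the replicate number as a block, 33 genes and 1 member passed for Hmgcs1 and 0 genes for Fasn. The cause of these changes was not tested. The median r of Hmgcs1 with the other sterol arm genes stayed between 0.47 and 0.59 in 37 alternatives.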

Other observations

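Outside the lists, the genes whose levels were most like the sterol arm score after removing condition means were Aggf1 (r = 0.87), an angiogenic factor, and Ralgps2 (0.85). Without removing condition means, their r over 24 pools was 0.71 and 0.51. The values that follow also have condition means removed. Next in order were Atxn7 (0.84), a subunit of the SAGA complex, Cd2 (0.83), a lymphocyte adhesion molecule whose probe was well above background on 16 arrays, and Mtfr2 (0.83). Then came Foxd3 (0.82), a transcription factor of the early embryo's pluripotent cells, Phip (0.81), Lsm6 (0.81), Il15ra (0.81) and Ung (0.81), the uracil-DNA glycosylase. Another 5 features among these carried no gene symbol or belong to the pathway outside the lists and are not named. The median of all 18006 genes outside the lists was 0.08. The median of the sterol arm genes with the rest of their own arm was 0.73, and 126 of those genes (0.6998%) reached it. These genes were picked for their likeness to the score, so the values are a description with no test.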
